A study of Mus musculus with 9 samples.

Results

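The noncollagen matrix was followed in a cochlear cell line that had received LMX1A or a frameshift form of it. The set holds 40 genes, taken by symbol from the 55451 genes of the deposited table and read in all 9 libraries. It has 27 structural members, 8 enzymes, 3 protease inhibitors and 2 hyaluronan synthases. Structural members are the 9 genes of elastic fibres and fibronectin, 6 matricellular glycoproteins, 5 proteoglycans and 7 basement membrane genes. The enzymes are 3 lysyl oxidases, which crosslink collagen and elastin, and 5 matrix proteases. Of the 40 members, 33 reached 1 FPKM in at least 3 libraries and were tested, and 7 did not. The members were chosen with earlier results of these data known, so their shares beside those of all genes are no independent test.

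Cells build the space around them from collagens and from noncollagen glycoproteins and proteoglycans, which give the matrix its elasticity, its hydration and its binding sites for integrins. Fibronectin and fibrillin form fibrils on which other proteins are deposited, and laminins with nidogens and perlecan form the basement membrane under epithelia. Proteases of the MMP and ADAMTS families cut these proteins, and TIMPs inhibit the proteases. In the cochlea, basement membranes underlie the sensory epithelium, and fibrocytes outside it lay down an interstitial matrix.

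The cells were HEI-OC1, an immortalised mouse line from the organ of Corti. The 3 groups differed in what was transduced. EV received the vector without an insert, WT the wild-type factor, and c.915dup a form in which a duplication shifts the reading frame near the C-terminus. Each group had 3 libraries, and all 9 share the same host line and the step of transduction. LMX1A is a LIM-homeodomain transcription factor, and the series' title ties its frameshift form to hearing loss. No label gives the vector's promoter, says whether cells were a clone or a pool, or names separate cultures behind the replicates. The p-values therefore cover only the spread of these libraries, which may be technical. Human LMX1A was listed at 0 in EV, at 131.1 to 132.8 FPKM in WT and at 148.9 to 169.6 FPKM in c.915dup, which fits the labels, and the mouse gene Lmx1a was at 0 in all 9.

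The values are FPKM, which are fragments per kilobase and per 1e6 fragments, so levels of different genes can be set side by side. The files gave depth only as an estimate, 14.9 to 19.1 in units of 1e6 fragments, and 11582 to 11884 genes per library reached 1 FPKM. The label of a hair cell line was not borne out by its markers, since all 10 hair cell markers stayed under 1 FPKM in every library and 6 of them (Atoh1, Pou4f3, Otof, Slc26a5, Calb2 and Ocm) were listed at 0. Of 9 fibroblast and mesenchyme markers 8 were present, and Thy1 was listed at 0 in every library. Summed levels over that list were 1909 to 2056 FPKM in EV, 1902 to 2102 FPKM in WT and 1922 to 1997 FPKM in c.915dup. Of 6 supporting cell markers, S100a1 and Fgfr3 were present, with summed levels over the list of 17.4 to 19.4 FPKM in EV, 18.3 to 20.3 FPKM in WT and 18.9 to 20.9 FPKM in c.915dup, and Sox2, Prox1 and Gjb2 were listed at 0. All 5 epithelial and all 4 endothelial markers stayed under 1 FPKM, and Cd68 alone of 4 immune markers passed it. The library numbered 1 stood apart in every group, with a mitochondrial share of 4.36 to 5.49% of summed FPKM against 1.69 to 2.17% in the others. The part of this difference in the results was not tested beyond the fits below. Among the members, 15 were higher in the library numbered 1 than in the mean of the other libraries in all 3 groups, 6 were lower in all 3 and 12 were mixed. Results are therefore given from a limma fit of the 3 groups and from the same fit with a term for the libraries numbered 1, which was added after the data were seen. In these bulk libraries, fewer cells of a kind and less RNA per cell cannot be told apart.

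The members' summed FPKM made up 0.8417 to 0.8709% of the library total in EV, 0.8729 to 0.9071% in WT and 0.8011 to 0.812% in c.915dup, so the 3 groups did not overlap. Sparc, a collagen-binding matricellular protein, and Fn1, fibronectin itself, together held 38.33 to 40.05% of the members' sum. With the small proteoglycan Bgn, the inhibitor Timp2, the gelatinase Mmp2 and the fibulin Fbln2 they held 67.7 to 69.2%. Summed by class, elastic fibre genes with fibronectin came to 742.3 to 872.2 FPKM and matricellular genes to 663.2 to 762.4 FPKM. Proteoglycans came to 280.5 to 326.4 FPKM and basement membrane genes to 211.9 to 247.0 FPKM. Among the members of turnover, the protease inhibitors summed to 397.2 to 428.8 FPKM, above the proteases at 265.1 to 314.6 FPKM in every library. This order holds only for the 3 inhibitors and 5 proteases of the set. Proteases outside it, such as Htra1 at 243 to 323 FPKM and Ctsl at 219 to 268 FPKM, were not counted. Lysyl oxidases came to 153.9 to 206.8 FPKM and the hyaluronan synthases to 11.3 to 13.8 FPKM.

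Fn1, Fbln2 and Bgn, which are among the strongest members, lay close between the groups and did not pass in either fit. Sparc, Mmp2 and Lox, also strong, passed with the term in a comparison of c.915dup and are given below. Values per group are in the order of libraries 1, 2 and 3, or 1, 3 and 4 for c.915dup. Fn1, whose fibrils bind integrins, measured 549, 545 and 546 FPKM in EV, 622, 570.2 and 556 in WT and 570.3, 524 and 521 in c.915dup. Its WT libraries lay above its EV libraries, while c.915dup overlapped both. Fbln2, a fibulin that binds fibronectin and basement membrane proteins, measured 166, 173 and 169 FPKM in EV, 178, 168 and 159.9 in WT and 164, 169 and 165 in c.915dup, with all 3 groups overlapping. Bgn, a small leucine-rich proteoglycan, measured 276, 259 and 276 FPKM in EV, 274, 261 and 260.3 in WT and 264, 246 and 246 in c.915dup, again with overlap.

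Of the genes of turnover, Mmp14, a membrane-anchored collagenase, measured 54.2, 65.9 and 62.9 FPKM in EV, 62.9, 66.1 and 66.0 in WT and 55.9, 63.1 and 65.8 in c.915dup. Timp2, which inhibits MMPs and takes part in activating Mmp2, measured 253, 272 and 264 FPKM in EV, 253, 275 and 271 in WT and 235, 253 and 247 in c.915dup. Both were lowest in the library numbered 1 in each of the 3 groups, and their groups overlapped. Timp3 measured 62.6, 56.7 and 55.4 FPKM in EV, 65.1, 59.3 and 59.9 in WT and 74.6, 60.8 and 59.8 in c.915dup and was highest in the library numbered 1 in each group. Loxl1 measured 25.8, 28.7 and 29.4 FPKM in EV, 29.3, 31.5 and 28.6 in WT and 25.9, 31.8 and 30.3 in c.915dup and Has2 11.2, 9.75 and 10.0 FPKM in EV, 10.5, 9.75 and 9.86 in WT and 10.8, 8.95 and 9.20 in c.915dup, with overlapping groups.

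**Figure D1:**
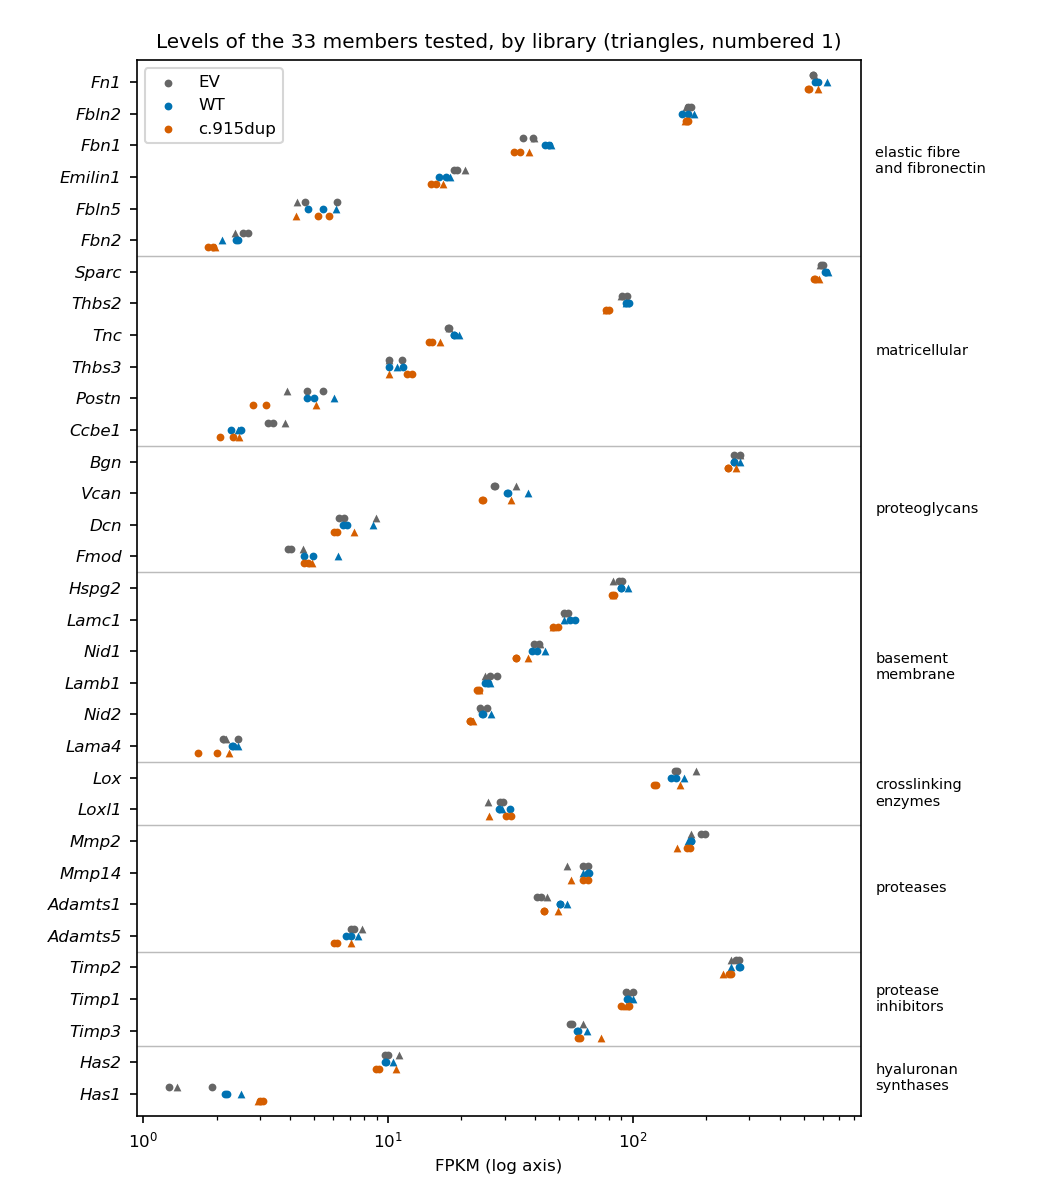
FPKM of the 33 tested members on a log axis, by class, with 1 point per library coloured by group and triangles for the libraries numbered 1. Levels run from Has1, at 1.28 to 3.09 FPKM, to Sparc, at 553 to 629 FPKM, and for most members the groups lie close to each other.

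Several genes of elastic and muscle matrix were near 0. Eln, the elastin gene, measured 0.0165, 0 and 0 FPKM in EV, 0.0112, 0 and 0.048 in WT and 0.0181, 0.0653 and 0 in c.915dup. The microfibril gene Mfap5 measured 0.0478, 0 and 0.0645 FPKM in EV, 0.0402, 0.0242 and 0.0735 in WT and 0, 0 and 0.067 in c.915dup. The fibulin Fbln1 measured 0.0148, 0 and 0 FPKM in EV, 0.018, 0 and 0 in WT and 0, 0 and 0 in c.915dup. These 3 genes and the proteoglycan Lum were listed at 0 in at least 1 library, with Lum at 0.022, 0 and 0 FPKM in EV, 0, 0 and 0 in WT and 0, 0 and 0 in c.915dup. Lama2, the laminin α chain of muscle, measured 0.0116, 0.0309 and 0.0379 FPKM in EV, 0.0531, 0.0264 and 0.0191 in WT and 0.0427, 0.0206 and 0.0349 in c.915dup, and the groups of these 5 overlapped. Lama4 lay at 1.67 to 2.45 FPKM, beside 47.4 to 58.0 FPKM for the γ chain gene Lamc1. Outside the set, Lama5 lay at 6.89 to 8.68 FPKM, Lama1 and Lama3 at no more than 0.0778 FPKM, and the β chain gene Lamb2 at 37.1 to 43.3 FPKM. Among lysyl oxidases, Lox lay at 122 to 181 FPKM and Loxl1 at 25.8 to 31.8 FPKM, whereas Loxl2 measured 0.0664, 0.0487 and 0.077 FPKM in EV, 0.0456, 0.0004 and 0.0399 in WT and 0.0641, 0.0342 and 0.0729 in c.915dup. Its WT and EV libraries did not overlap, but their nearest values were 0.0456 and 0.0487 FPKM, so near 0 that no difference is read from them. Loxl3 and Loxl4, which are no members, lay at 26.8 to 30.8 and 21.0 to 26.9 FPKM. The stromelysin gene Mmp3 measured 0.920, 0.543 and 0.389 FPKM in EV, 0.366, 0.648 and 0.653 in WT and 0.340, 0.540 and 0.660 in c.915dup, with overlap of the groups. Eln, Mfap5, Fbln1, Lum, Lama2, Loxl2 and Mmp3 missed the filter and got no test in the limma fits below.

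Upstream sequences are shown for Adamts1, Has1, Thbs2 and Vcan, since they and Fbn1 are the members that passed the test in at least 1 comparison when the number in the column header was a block. Each is the 250 bases before the RefSeq start (GRCm38.p6), written on the minus strand from 5′ to 3′. For Fbn1 the RefSeq start lies inside the gene span of the authors' table, so no window is shown, and the bases of the Has1 window nearest the start also lie within that span. The windows are chr16:85803114-85803363, chr17:17855189-17855438, chr17:14694263-14694512 and chr13:89742513-89742762. Capitals mark the motifs searched on both strands, of which none contains another. The homeodomain core was spelled TAATTA. For AP-1 the letters searched were TGANTCA. The TATA box was taken as TATAAA. GC boxes were taken as GGGCGG. Last, the short SMAD box was read as CAGAC.
Adamts1: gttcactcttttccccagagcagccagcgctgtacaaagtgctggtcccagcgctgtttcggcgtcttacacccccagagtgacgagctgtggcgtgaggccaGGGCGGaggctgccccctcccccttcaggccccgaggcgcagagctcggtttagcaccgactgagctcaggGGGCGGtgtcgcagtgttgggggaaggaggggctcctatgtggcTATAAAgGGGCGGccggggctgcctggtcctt
Has1: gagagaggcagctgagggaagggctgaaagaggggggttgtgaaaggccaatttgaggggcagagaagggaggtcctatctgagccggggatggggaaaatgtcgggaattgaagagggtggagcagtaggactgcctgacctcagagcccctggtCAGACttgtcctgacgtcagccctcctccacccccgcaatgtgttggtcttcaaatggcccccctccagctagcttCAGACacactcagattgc
Thbs2: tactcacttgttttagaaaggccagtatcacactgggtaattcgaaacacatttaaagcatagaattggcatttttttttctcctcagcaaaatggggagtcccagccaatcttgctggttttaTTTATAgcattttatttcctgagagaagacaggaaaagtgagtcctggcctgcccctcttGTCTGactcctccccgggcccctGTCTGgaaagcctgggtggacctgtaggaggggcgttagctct
Vcan: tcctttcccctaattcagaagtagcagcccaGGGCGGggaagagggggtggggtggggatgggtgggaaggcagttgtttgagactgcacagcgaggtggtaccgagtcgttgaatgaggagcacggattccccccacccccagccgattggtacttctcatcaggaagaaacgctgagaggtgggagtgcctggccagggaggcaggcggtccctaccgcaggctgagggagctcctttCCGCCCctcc
The homeodomain core was in none of these 4 windows, which says only that those letters are not there. In all, 24 members had a RefSeq window (28 windows), and TAATTA was found in 1 of them, that of Fbln5, against 4.84% of all 32851 windows and 2.3% of the 11302 windows of tested genes. TGANTCA was in 1 member window, that of Mmp3, against 6.75% of all windows and 4.3% of those of tested genes. The 28 member windows include those of members that were not tested, such as Mmp3, Fbln1 and Lama2. TATAAA was in 6 of 28 member windows, belonging to Adamts1, Mmp3, Postn, Thbs2 and Tnc, against 12.37% and 5.93%. In Adamts1 it began 32 bases before the start, and in Thbs2 its reverse complement began 126 bases before it. GGGCGG was in 17 of 28 member windows, against 32.74% and 59.31%, and CAGAC in 12 of 28, against 42.19% and 40.1%. These matches are letters in a window and were not tested as binding sites.

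Wild-type LMX1A against the empty vector asks what the intact factor changes. In the limma fit of the 3 groups, 0 of 33 members passed at an adjusted p under 0.05, while 0.352% of all 11933 genes tested did. At an unadjusted p under 0.05 there were 6 of 33 members, against 6.13% of all genes. The median log2 difference was 0.04, with 23 members above 0 and 10 below, beside -0.005 over all genes. With the term for libraries numbered 1, Adamts1 and Fbn1 rose, where 0.804% of all genes rose, and Ccbe1 fell, where 0.411% fell. Leaving out single libraries took this count from 3 to 1 without EV 1, EV 3, WT 1, WT 2, WT 3 or c.915dup 3, and Adamts1 passed in all 9 of these fits.

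Adamts1, a secreted protease that cuts versican and other large proteoglycans, had the smallest adjusted p of them (chr16:85793827-85803113, GRCm38). It measured 44.8, 42.5 and 40.6 FPKM in EV, 53.8, 50.7 and 50.5 in WT and 49.4, 43.4 and 43.6 in c.915dup. All WT libraries lay above all EV libraries, and c.915dup overlapped EV. The log2 difference of WT from EV was 0.27 ± 0.04 (SE) with the term, with a limma adjusted p of 0.0041, against 0.26 without the term and 0.021 with the header number as block. It was 0.26 between the libraries numbered 1 and 0.28 among the others.

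Fbn1 encodes fibrillin 1, the backbone of the microfibrils on which elastin is laid (chr2:125300594-125507993). Its levels were 39.7, 39.3 and 35.8 FPKM in EV, 46.5, 44.0 and 45.4 in WT and 37.7, 34.6 and 32.8 in c.915dup. WT lay above EV without overlap, by 18.3% of the EV mean, and the log2 difference was 0.24 ± 0.05 (limma adjusted p 0.037 with the term and 0.38 without). That call was lost when EV 1, EV 3, any WT library or c.915dup 3 was left out. Ccbe1, a secreted protein that helps activate VEGF-C in lymphatic growth, stood lower in WT, at 2.42 ± 0.121 FPKM against 3.48 ± 0.304 FPKM in EV (SD, n = 3). Its log2 difference was -0.39 ± 0.08, with a limma adjusted p of 0.045 with the term and 0.21 without, and it passed in none of the 9 fits with the term that left out 1 library.

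Without regard to a test, 7 of the 33 tested members lay higher in WT than in EV with no overlap of the libraries (Fn1, Fbn1, Tnc, Sparc, Fmod, Adamts1 and Has1), where 6.7% of all genes did. Emilin1 and Ccbe1 lay lower without overlap, where 6.17% of all genes did. Fmod, a small proteoglycan that binds collagen fibrils, had 4.51, 4.02 and 3.92 FPKM in EV and 6.26, 4.57 and 4.93 FPKM in WT, and its log2 difference of 0.27 ± 0.07 did not pass (limma adjusted p 0.12 with the term). None of the 6 basement membrane genes and none of the 3 inhibitors separated the groups, and their differences ran from -0.04 for Lamb1 to 0.08 for Timp3.

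The frameshift form against the empty vector gave more calls. Has1 rose and Ccbe1 fell in the limma fit of the 3 groups, so 2 of 33 members passed, where 1.09% of all genes did. With the term for libraries numbered 1, Has1 rose, where 3.44% of all genes rose, and 7 members fell (Thbs2, Tnc, Ccbe1, Emilin1, Nid1, Lox and Mmp2), where 2.1% of all genes fell. The median member difference was -0.12 with 25 of 33 below 0, beside a median of -0.0003 over all genes, of which 50.1% were below 0. Both EV comparisons use the same 3 EV libraries, and both c.915dup comparisons the same 3 c.915dup libraries.

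Has1 makes hyaluronan, the glycosaminoglycan that fills loose matrix and carries versican (chr17:17843323-17855205). It measured 1.38, 1.91 and 1.28 FPKM in EV, 2.51, 2.17 and 2.20 in WT and 2.96, 3.09 and 3.004 in c.915dup. Every c.915dup library lay above every WT library and every WT library above every EV library, all at low levels. Between c.915dup and EV the log2 difference was 0.68 ± 0.11 (SE; limma adjusted p 0.017), and the c.915dup mean was 98.0% higher. With the header number as block the limma adjusted p was 0.031. With the term it was 0.0043, and Has1 passed in all 9 fits with the term that left out 1 library. Without the term it passed in 5 of 9, and not without EV 1, EV 3, c.915dup 3 or c.915dup 4. WT against EV (0.39 ± 0.11, limma adjusted p 0.13 with the term) and c.915dup against WT (0.29 ± 0.11, 0.15) did not pass. Has2, the stronger synthase in these cells, measured 8.95 to 11.2 FPKM in all libraries with overlapping groups. On the other strand Has2 meets Has2os, at 1.09 to 1.99 FPKM. Has3, which is no member, stayed at 0.137 to 0.247 FPKM.

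Ccbe1 measured 3.82, 3.39 and 3.23 FPKM in EV, 2.45, 2.52 and 2.28 in WT and 2.46, 2.33 and 2.06 in c.915dup. Every EV library lay above every library with LMX1A, and WT and c.915dup overlapped. Its log2 difference of c.915dup from EV was -0.45 ± 0.09, with a limma adjusted p of 0.047. That p rose above 0.05 in each of the 9 fits that left out 1 library, up to 0.18, while with the term the adjusted p was 0.0092 and the call was lost only without EV 1. With the header number as block its limma adjusted p was 0.1. Between the 2 forms of LMX1A it differed by -0.06 ± 0.08 (SE with the term).

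**Figure D2:**
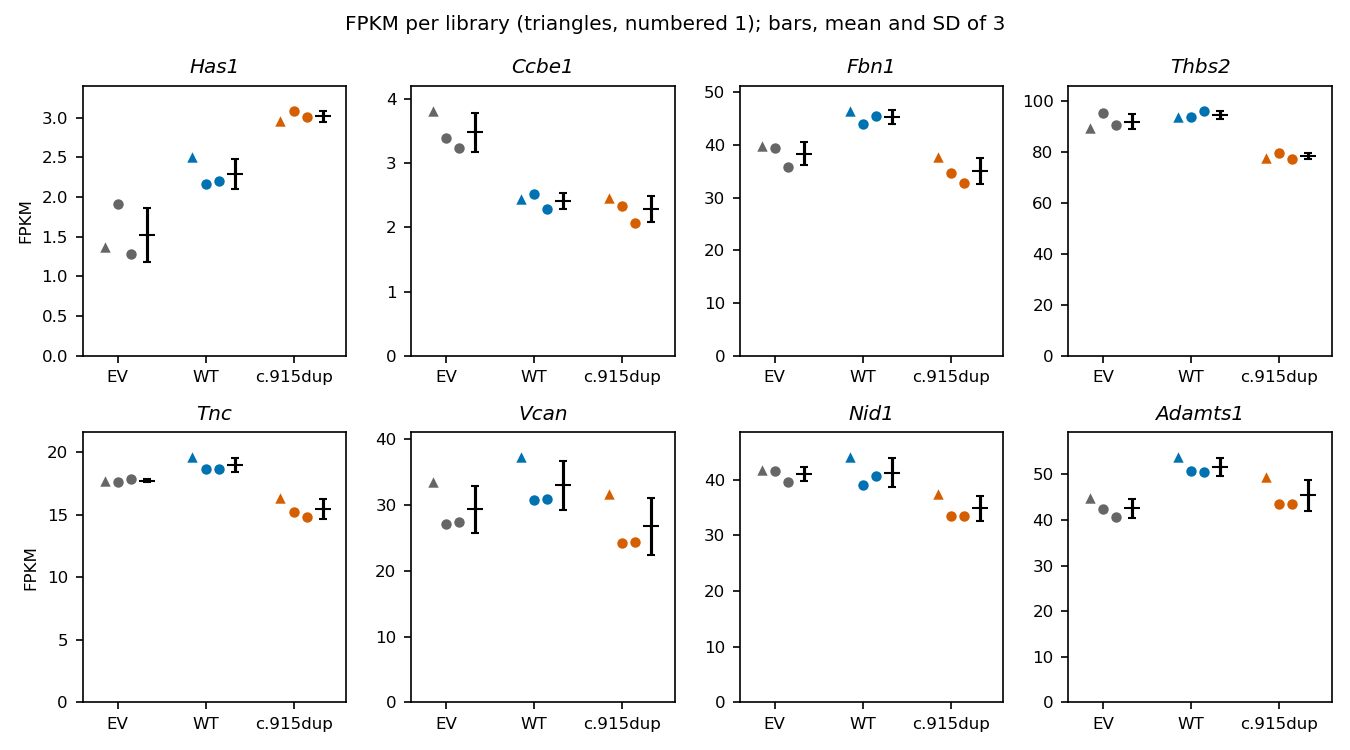
FPKM in each library of 8 members that passed with the term in at least 1 comparison, by group, with bars for the mean and SD of 3 libraries and triangles for the libraries numbered 1; each axis starts at 0. Has1 points lie lowest in EV and highest in c.915dup, Ccbe1 is high in EV alone, and all c.915dup points of Thbs2, Tnc and Nid1 lie below all others of the same gene.

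Of the other falls against EV, Emilin1, a glycoprotein of the elastic fibre surface, measured 20.7, 19.2 and 18.6 FPKM in EV, 17.9, 17.4 and 16.2 in WT and 16.8, 15.0 and 15.7 in c.915dup. The EV libraries were the highest and did not overlap the other groups, and WT overlapped c.915dup. Its log2 difference of c.915dup from EV was -0.28 ± 0.05 (limma adjusted p 0.006 with the term, 0.11 without). The gelatinase Mmp2, which cuts denatured collagen and type IV collagen, measured 173, 199 and 190.3 FPKM in EV, 169, 174 and 173 in WT and 152, 171 and 167 in c.915dup. Its c.915dup libraries were all below its EV libraries, and the difference of -0.20 ± 0.04 had a limma adjusted p of 0.01 with the term and 0.25 without. Emilin1, Thbs2, Nid1, Lox and Mmp2 passed with the term in all 9 fits that left out 1 library, whereas Tnc did so in 2.

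In this comparison 12 of the 33 tested members lay lower without overlap, where 7.58% of all genes did, and Has1 and Fmod lay higher, where 9.29% did. The 12 were Fbn2, Emilin1, Tnc, Thbs2, Sparc, Ccbe1, Lamb1, Lamc1, Nid1, Nid2, Mmp2 and Adamts5. Fbn2, the second fibrillin gene, did not pass at -0.28 ± 0.08 (limma adjusted p 0.084 with the term), with 1.92 ± 0.0673 FPKM in c.915dup against 2.54 ± 0.154 FPKM in EV. Fn1 differed by -0.02 ± 0.03 and Fbln2 by -0.03 ± 0.04 (SE with the term), and neither passed.

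The frameshift form against the wild type compares both LMX1A groups directly. In the limma fit of the 3 groups, 0 of 33 members passed, where 0.226% of all genes did, and at an unadjusted p under 0.05 there were 12 of 33, against 10.4% of all genes. With the term for libraries numbered 1, 11 members fell (Fbn1, Thbs2, Tnc, Sparc, Vcan, Lamc1, Nid1, Nid2, Lox, Adamts1 and Timp2), where 1.68% of all genes fell, and 0 rose, where 3.13% of all genes rose. The count was 5 without WT 2 or WT 3 and 4 without c.915dup 3 or c.915dup 4, and Fbn1, Thbs2, Tnc and Vcan passed in all 9 such fits. The median member difference was -0.12, and 30 of 33 members were below 0, all but Has1, Thbs3 and Timp3, where 49.43% of all genes were below 0. Scaling by median ratios or without mitochondrial genes left this count at 30, and the count against EV at 25.

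**Figure D3:**
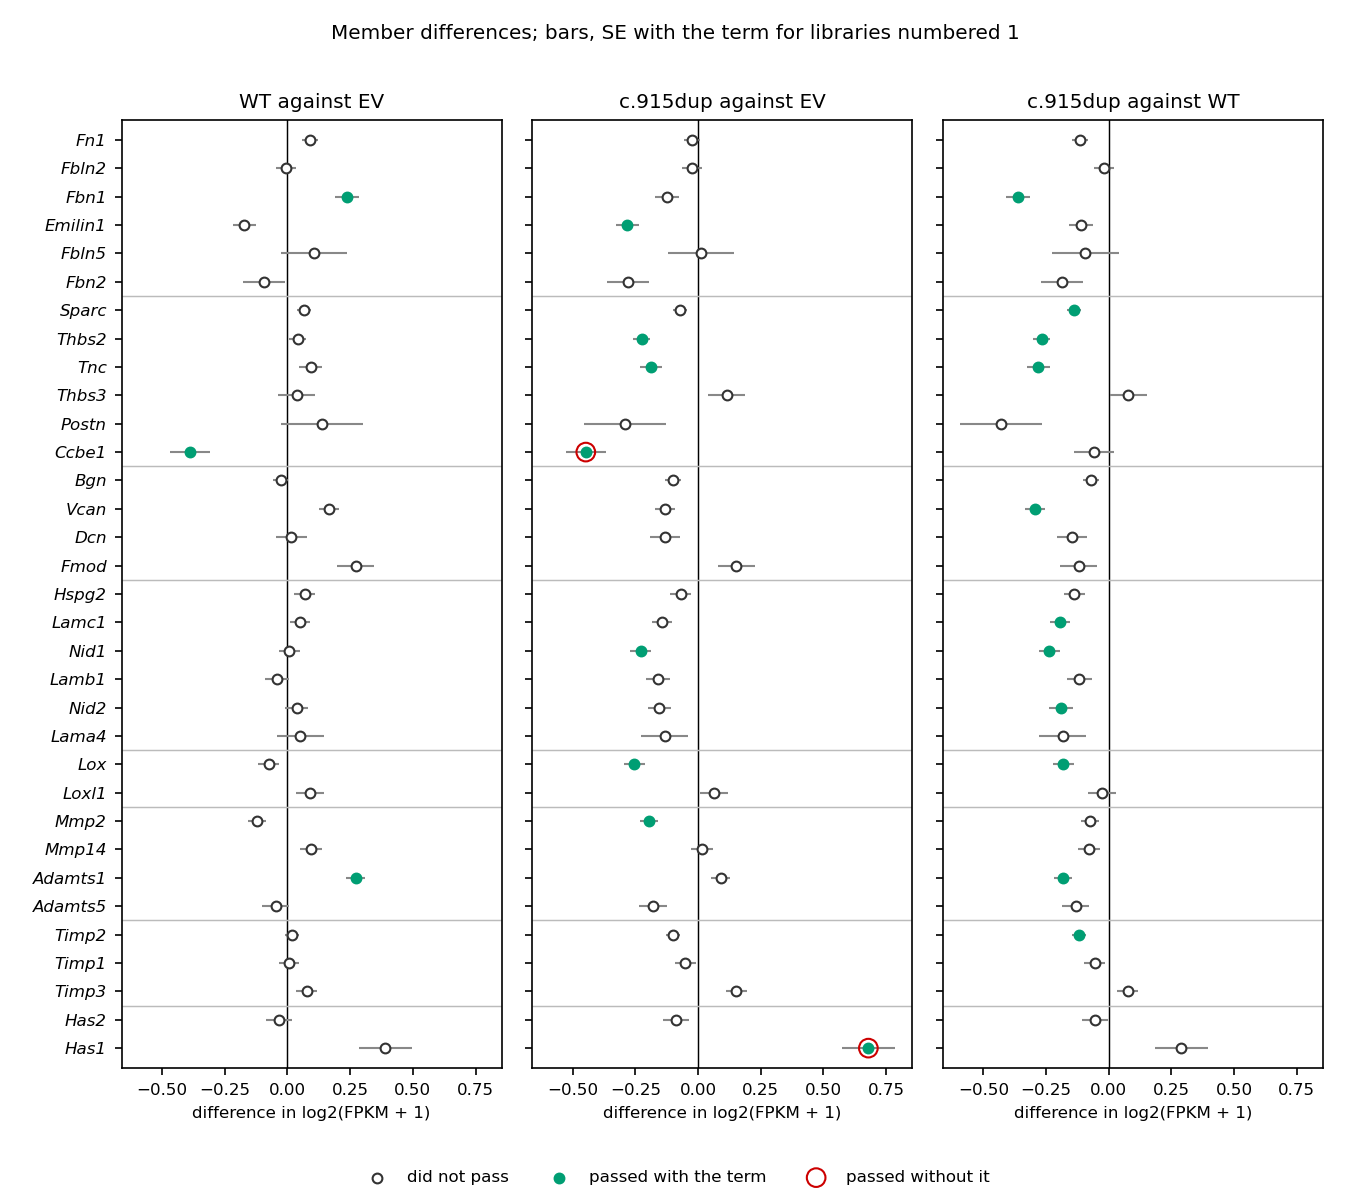
Difference in log2(FPKM + 1) of each tested member in the 3 comparisons, with bars for the SE of the fit with the term for libraries numbered 1; filled points passed with the term and red rings passed without it. In the right panel 30 of 33 points lie left of 0 and 11 are filled, while in the left panel 3 are filled.

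Fibrillin 1 showed the largest difference among the members that passed. Fbn1 was 22.6% lower in c.915dup than in WT, with all c.915dup libraries below all WT libraries and overlapping EV. The log2 difference was -0.36 ± 0.05 (limma adjusted p 0.0024 with the term, 0.038 with the header number as block and 0.062 with neither). It was -0.30 between the libraries numbered 1 and -0.40 among the others. The remaining elastic fibre members that were tested differed by -0.19 (Fbn2) to -0.02 (Fbln2), and 0 of those 5 passed.

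Of the matricellular genes, 3 of 6 fell against WT with the term, where 1.68% of all genes fell. Thbs2, a thrombospondin that binds matrix proteases and limits vessel growth (chr17:14665500-14694235), measured 89.7, 95.2 and 90.9 FPKM in EV, 93.9, 93.7 and 96.4 in WT and 78.0, 79.9 and 77.6 in c.915dup. The c.915dup libraries lay below all 6 others, which overlapped each other. Thbs2 was 17.1% lower than in WT (-0.27 ± 0.03, limma adjusted p 0.0022 with the term and 0.06 without) and 14.7% lower than in EV (-0.23 ± 0.03, 0.0032 and 0.052). Against WT it was -0.27 between the libraries numbered 1 and -0.27 among the others.

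Tnc encodes tenascin C, an adhesion-modulating glycoprotein of developing and healing tissue (chr4:63959785-64047015). Its levels were 17.7, 17.6 and 17.8 FPKM in EV, 19.6, 18.6 and 18.6 in WT and 16.3, 15.2 and 14.8 in c.915dup, and the 3 groups did not overlap. The difference from WT was -0.28 ± 0.05 (limma adjusted p 0.0075 with the term, 0.08 without). Sparc measured 583, 601 and 589.8 FPKM in EV, 629, 617 and 610.3 in WT and 578, 555 and 553 in c.915dup. It was lower in every c.915dup library than in any other, with a log2 difference of -0.14 ± 0.03 from WT (limma adjusted p 0.021 with the term, 0.27 without), a call that was lost without any 1 of the WT libraries, c.915dup 3 or c.915dup 4. The periostin gene Postn, with 3.88, 4.67 and 5.45 FPKM in EV, 6.02, 4.98 and 4.66 in WT and 5.08, 2.81 and 3.20 in c.915dup, varied within groups, and its difference of -0.43 ± 0.16 did not pass. With the libraries numbered 1 left out it passed against WT (-0.54, limma adjusted p 0.032) and against EV (-0.60, limma adjusted p 0.018). Between the libraries numbered 1, c.915dup differed by -0.21 from WT and by 0.32 from EV. Thbs3 measured 10.1 to 12.6 FPKM and shares its span with Mtx1 on the other strand, at 18.8 to 28.8 FPKM; whether counting used strand is not given.

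Among proteoglycans 1 of 4 fell against WT with the term, where 1.68% of all genes fell. Vcan encodes versican, the large hyaluronan-binding proteoglycan of loose matrix (chr13:89655312-89742509), and measured 33.5, 27.1 and 27.4 FPKM in EV, 37.3, 30.8 and 30.9 in WT and 31.8, 24.2 and 24.5 in c.915dup. The library numbered 1 was the highest of its group in every group, so that WT and c.915dup overlapped as pooled, while within the libraries numbered 1 and within the others c.915dup was the lowest group. The log2 difference from WT was -0.23 between the libraries numbered 1 and -0.33 among the others. With the term it was -0.30 ± 0.04 (limma adjusted p 0.0032), and without it the SE was 0.12 and the adjusted p 0.46. The small proteoglycans Bgn, Dcn and Fmod differed by -0.07 ± 0.03, -0.15 ± 0.06 and -0.12 ± 0.07 (SE with the term) and did not pass.

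All 6 tested basement membrane members lay lower in c.915dup than in WT with no overlap of the libraries. Over all classes 12 of the 33 tested members did so, where 6.85% of all genes did, and Has1 alone lay higher, where 9.23% did. Nid1, the nidogen that links laminin to type IV collagen (chr13:13437551-13512269), measured 41.8, 41.5 and 39.6 FPKM in EV, 44.0, 39.0 and 40.6 in WT and 37.4, 33.5 and 33.6 in c.915dup. It was 15.5% lower than in WT (-0.24 ± 0.04, limma adjusted p 0.012 with the term, 0.22 without) and 15.0% lower than in EV (-0.23 ± 0.04, 0.0098 and 0.19).

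The laminin γ1 gene Lamc1, which is part of most laminins, measured 53.1, 54.5 and 52.4 FPKM in EV, 52.3, 55.7 and 58.0 in WT and 47.5, 47.4 and 49.5 in c.915dup. Its c.915dup libraries were below all others, and the difference from WT was -0.20 ± 0.04 (limma adjusted p 0.024 with the term, 0.21 without). Nid2, the other nidogen, measured 24.2, 25.5 and 23.8 FPKM in EV, 26.5, 24.6 and 24.3 in WT and 22.3, 21.7 and 21.6 in c.915dup. Its c.915dup libraries too were below all others, and it differed from WT by -0.19 ± 0.05 (limma adjusted p 0.043 with the term, 0.23 without). Lamc1 passed in 4 and Nid2 in 2 of the 9 fits with the term that left out 1 library, against 7 for Nid1. Nid2 meets Rtraf at its end on the other strand, at 37.1 to 47.3 FPKM. Hspg2, which encodes perlecan, measured 82.9, 91.0 and 88.3 FPKM in EV, 95.5, 90.0 and 89.6 in WT and 82.9, 84.3 and 82.3 in c.915dup, and its difference of -0.14 ± 0.04 did not pass. Lamb1 (-0.12 ± 0.05) and Lama4 (-0.18 ± 0.09) did not pass either. Against EV the class median was -0.15, beside -0.19 against WT, and 4 of 6 lay lower without overlap, where 7.58% of all genes did.

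**Figure D4:**
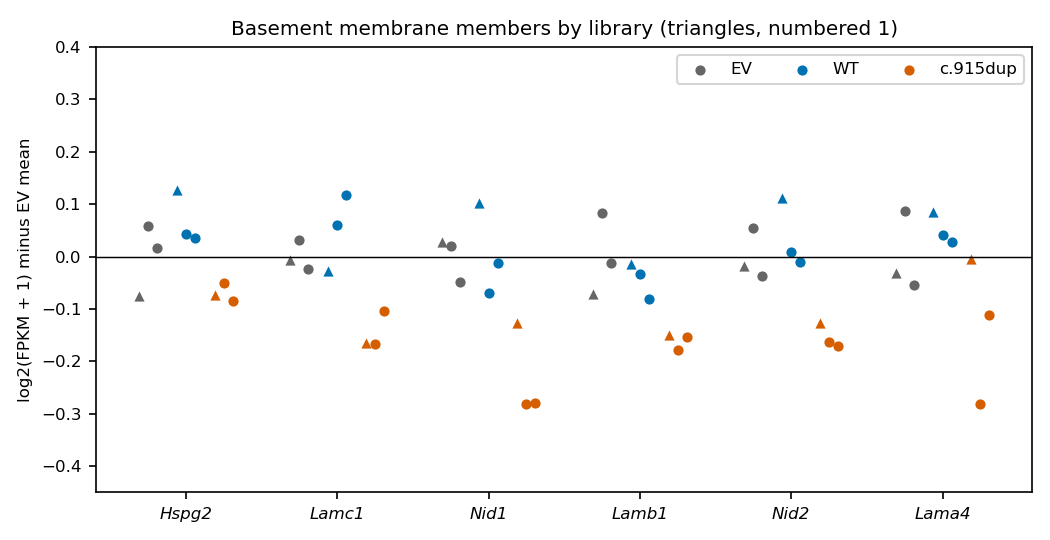
Level of the 6 tested basement membrane members in each library as log2(FPKM + 1) minus the EV mean of that gene, by group, with triangles for the libraries numbered 1. All c.915dup points lie below all WT points of the same gene and under 0, while WT points lie on both sides of 0.

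Of the enzymes, Lox and Adamts1 fell against WT with the term, where 1.68% of all genes fell. Lox, the lysyl oxidase that starts collagen and elastin crosslinks, measured 181, 152 and 149 FPKM in EV, 162, 144 and 150.1 in WT and 156, 122 and 125 in c.915dup. The libraries numbered 1 were again the highest of each group, and the groups overlapped as pooled. Its difference of c.915dup from WT was -0.18 ± 0.04 (limma adjusted p 0.035 with the term, 0.6 without), and it was -0.05 between the libraries numbered 1 and -0.25 among the others. From EV it was -0.26 ± 0.04 (0.0055 with the term, 0.39 without, limma), with -0.21 and -0.28 in the same split. Lox and Lamc1 each meet another gene on the other strand, at 8.05 to 10.2 FPKM for Lox and 1.08 to 2.37 FPKM for Lamc1.

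Loxl1, the form needed for elastic fibre upkeep, differed by -0.03 ± 0.06 from WT, with c.915dup and WT overlapping. Adamts1 was 12.0% lower in c.915dup than in WT (-0.18 ± 0.04, limma adjusted p 0.024 with the term, 0.35 without), so that its c.915dup mean lay between those of EV and WT. Its relative Adamts5, a main aggrecanase, differed by -0.13 ± 0.05, and Mmp2 and the membrane-bound activator of Mmp2, Mmp14, by -0.07 ± 0.04 and -0.08 ± 0.04; these 3 did not pass. Of the inhibitors, Timp2 fell by 0.12 on the log2 scale (SE 0.03, limma adjusted p 0.04 with the term, 0.49 without), and this call was lost in each of the 9 fits that left out 1 library. Timp1 and Timp3, the inhibitor that stays bound to matrix, differed by -0.06 ± 0.04 and 0.08 ± 0.04 and did not pass.

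Set side by side, structural members and enzymes had medians below 0 in both comparisons of c.915dup. Against WT the median log2 difference was -0.14 for 22 structural members, of which 21 were below 0 and 8 fell with the term, and -0.11 for 6 enzymes, of which 6 were below 0 and 2 fell; of all genes 49.43% were below 0 and 1.68% fell. Against EV the medians were -0.13 (19 of 22 below 0, 5 fell) and -0.08 (3 of 6 below 0, 2 fell), where 50.1% of all genes were below 0 and 2.1% fell. WT against EV gave 0.05 (16 of 22 above 0, 1 rose and 1 fell) and 0.02 (3 of 6 above 0, 1 rose), where 52.22% of all genes were below 0, 0.804% rose and 0.411% fell. With the libraries numbered 1 left out, the medians of WT against EV were 0.0032 for structural members and 0.0018 for enzymes. Without the term, 0 of 22 structural members and 0 of 6 enzymes passed in c.915dup against WT, where 0.226% of all genes did. In c.915dup against EV, 1 structural member fell without the term and 0 enzymes passed, where 1.09% of all genes passed. The difference between the classes was not tested.

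The structural sum was 2043, 2057 and 2042 FPKM in EV, 2208, 2096 and 2069 FPKM in WT and 2009, 1910.3 and 1899.9 FPKM in c.915dup, with no overlap of the 3 groups. The nearest libraries of different groups were EV 2 at 2057 FPKM and WT 3 at 2069 FPKM. Sparc and Fn1, which held 38.33 to 40.05% of the sum of all members, weighed most in the structural sum. The enzyme sum was 488, 495 and 480 FPKM in EV, 485, 473 and 476 FPKM in WT and 447, 438 and 439 FPKM in c.915dup, where c.915dup alone stood apart. Divided, structural over enzyme sums gave 4.15 to 4.26 in EV, 4.35 to 4.55 in WT and 4.33 to 4.49 in c.915dup, so both groups with LMX1A lay above EV and overlapped each other. Against EV the sums in c.915dup thus ran in the other order than the medians, with differences of the group means of -5.24% for structural members and -9.47% for enzymes. Mmp2 and Lox made up 66.6 to 72.6% of the enzyme sum.

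Other matrix genes were counted from lists that are not part of the 40. Of 24 tested matrix glycoproteins, Thbs1, Ccn1 and Ccn2 rose in the limma fit of the 3 groups against EV, in WT as in c.915dup, where 0.352% and 1.09% of all genes passed. The angiogenesis inhibitor Thbs1, a close relative of Thbs2, measured 109.5, 114 and 111 FPKM in EV, 139, 142 and 139.6 in WT and 144, 140.3 and 137 in c.915dup, so that both groups with LMX1A lay above EV. Its log2 difference from EV was 0.33 ± 0.04 in WT and 0.33 ± 0.04 in c.915dup (limma adjusted p 0.014, kept in 4 of 9 fits that left out 1 library, and 0.0067, kept in 9), where Thbs2 had 0.04 ± 0.04 and -0.23 ± 0.04. Ccn1, a heparin-binding matricellular protein, measured 377, 382 and 372 FPKM in EV, 482, 491 and 485 in WT and 565, 570.3 and 568 in c.915dup, with 0.37 ± 0.04 and 0.59 ± 0.04 (limma adjusted p 0.0037 and 6.5e-05). Ccn2, the connective tissue growth factor, rose by 0.65 ± 0.07 and 0.70 ± 0.07 (limma adjusted p 0.0034 and 0.00092).

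With the term, Ccn1 was also higher and Matn2, a matrilin, and Efemp1, a fibulin, were lower in c.915dup than in WT (0.22 ± 0.02, -0.27 ± 0.04 and -0.17 ± 0.04; limma adjusted p 0.0011, 0.0055 and 0.027), where 3.13% of all genes rose and 1.68% fell, and without it none of the 24 passed there. Against EV the term added Efemp1 among those that rose in WT (0.21 ± 0.04, limma adjusted p 0.018), where 0.804% of all genes rose. It also added Ccn4 and Matn2, which fell in c.915dup (-0.19 ± 0.05 and -0.16 ± 0.04, limma adjusted p 0.042 and 0.048), where 2.1% of all genes fell.

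Of 24 tested matrix proteases and inhibitors outside the set, Plau rose in WT, Plau and Plaur rose in c.915dup against EV, and 0 fell in the limma fit of the 3 groups, where 0.352% and 1.09% of all genes passed. Plau, the plasminogen activator urokinase, rose from 35.7 ± 1.41 to 46.6 ± 1.29 FPKM in WT and 47.4 ± 2.85 FPKM in c.915dup (SD, n = 3; log2 differences 0.38 ± 0.06 and 0.40 ± 0.06, limma adjusted p 0.031 and 0.012). The urokinase receptor gene Plaur rose in c.915dup from 7.99 ± 0.611 to 11.3 ± 1.02 FPKM (0.45 ± 0.08, limma adjusted p 0.035). Of the fits that left out 1 of 9 libraries, Plau passed in 2 for WT, and Plau passed in 6 and Plaur in 3 for c.915dup, while with the term each passed in all 9. With the term, Adamts10 also rose and Adamts9 and Serpine2 fell in c.915dup against EV (0.36 ± 0.07, -0.33 ± 0.08 and -0.40 ± 0.10; limma adjusted p 0.0092, 0.031 and 0.036), so that 3 of 24 rose, where 3.44% of all genes did, and 2 fell, where 2.1% did. Against WT, Adamts10 rose and Adam10 fell with the term (0.32 ± 0.07 and -0.16 ± 0.04, 0.022 and 0.035, limma), where 3.13% of all genes rose and 1.68% fell.

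Of 15 tested TGF-beta ligands, receptors and SMADs, Smad7, an inhibitor of that pathway, rose in c.915dup against EV, from 6.70 ± 0.211 to 9.19 ± 0.749 FPKM (0.40 ± 0.07, limma adjusted p 0.028), a call kept in 2 of 9 fits that left out 1 library and in 9 of 9 with the term. In the limma fit of the 3 groups 1.09% of all genes passed in that comparison. With the term, 3 of the 15 fell in that comparison, where 2.1% of all genes did. These were the receptor genes Tgfbr2 and Tgfbr3 and Fst, which encodes the activin-binding follistatin (-0.20 ± 0.04, -0.20 ± 0.05 and -0.34 ± 0.07; limma adjusted p 0.023, 0.035 and 0.018).

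In the limma fit of the 3 groups none of 15 other proteoglycan and hyaluronan genes, none of 13 other crosslinking and collagen-modifying enzymes and none of 16 matrix receptors passed in any comparison. Their medians in c.915dup against WT were -0.12, -0.005 and -0.10. With the term, 1, 1 and 0 of them fell in that comparison, where 1.68% of all genes fell, and 0, 2 and 0 rose, where 3.13% rose. In c.915dup against EV 2, 2 and 0 fell, where 2.1% fell, and 0, 1 and 0 rose, where 3.44% rose, while in WT against EV Ddr2 alone of the 3 lists rose (0.19 ± 0.03, limma adjusted p 0.023), where 0.804% rose. The integrin genes Itgb1 and Itga5, whose products bind fibronectin, measured 177 to 201 and 34.9 to 39.0 FPKM, and the hyaluronan receptor gene Cd44 measured 39.6 to 49.7 FPKM.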

How the data were processed

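RNA from 9 HEI-OC1 libraries was sequenced by the authors, 3 per group. The deposited values are FPKM made by the authors. This unit is an inference from the values, as it is named in no header. The submitters' processing notes list CASAVA 1.8, Trimmomatic, FastQC, HISAT2, RSEM, edgeR and GRCm38 without role or order, while BWA, TopHat and Cufflinks stand in the design text. Strand use in counting is not given. A second table of 16512 genes repeats these values, and a correlation table was not used. Headers number the c.915dup columns 1, 3 and 4, which ties them to the group but to no single title.

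The 11933 genes that reached 1 FPKM in 3 or more libraries were taken as log2(FPKM + 1), a scale that understates the change of low genes. They were fitted with limma 3.58.1 in R 4.3.3 (lmFit, eBayes with trend and robust), with 3 group means, two-sided, and Benjamini-Hochberg adjusted over all genes, with a threshold of 0.05. A count test was not run because the files hold no counts. The fit without the term was tried on simulated data that held no effect of the libraries numbered 1, and the fit with the term was not. Library numbers pair samples in part: deviations from group means correlated at 0.62, 0.39 and 0.26 between EV and WT libraries 1, 2 and 3, and library 1 of c.915dup at 0.66 and 0.64 with those of EV and WT. Numbers 2 and 3 could not be told apart. The planned block therefore used the header number, where c.915dup 4 stands alone, and a block of 2 levels (numbered 1 or not) was added after the data were seen. In the text it is the term for libraries numbered 1.

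Members were matched by symbol. Full values are given for members that passed in either fit, for the highest of each class and for those near 0, and up to 4 passing genes for other lists. Members, lists and this rule were chosen with earlier results of these data known. Tables were read with pandas 2.3.3, and matplotlib 3.10.9 drew the figures. One gene outside the 40 is not reported here.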

Additional observations from a re-analysis of the deposited data

How the results depend on the processing

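No difference of a member that passed in either fit changed its sign under any alternative to the fit without the term. These alternatives included the fit with the term, whose own alternatives were not compared for sign. The 7 members under the filter were fitted only without a filter, where none passed. The number of members called changed most with how libraries numbered 1 were treated. The counts below are in the order WT against EV, c.915dup against EV and c.915dup against WT. Members called numbered 0, 2 and 0. With the replicate block of the header number they numbered 1, 1 and 3, with the replicate block of 2 levels 3, 8 and 11, and with the libraries numbered 1 left out 1, 7 and 10. In c.915dup against EV no filter and a fit of only the 2 groups each gave 0. A mean of at least 5 FPKM, which removes Has1 and Ccbe1, gave 1, which is thus another member. In c.915dup against WT a mean of at least 5 FPKM gave 1, median-ratio scaling 2 and scaling without mitochondrial genes 1. Without single replicates the count in c.915dup against EV was 0 to 1.

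Among all genes 42, 130 and 27 were called. The replicate block gave 96, 227 and 137, the replicate block of 2 levels 145, 661 and 574, leaving out the libraries numbered 1 gave 85, 415 and 361, no filter 24, 66 and 10, and only the 2 groups 27, 63 and 14. In c.915dup against WT a mean of at least 5 FPKM gave 43 and median-ratio scaling 63, of which 81.0% were higher against 96.3% as reported. With the libraries numbered 1 left out the share higher was 74.1%, 60.5% and 54.0%, and with the replicate block of 2 levels 66.2%, 62.0% and 65.2%, against 85.7%, 88.5% and 96.3%. In WT against EV it was 69.8% with the replicate block and 75.0% with no filter. Leaving out single replicates gave 19 to 40, 61 to 111 and 8 to 36.

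With the term for libraries numbered 1, members called numbered 3, 8 and 11. No filter gave 1, 4 and 3, only the 2 groups 1 and 7 in the first and last, and eBayes without trend and robust 4 in the last. Leaving out single replicates gave 1 to 3 and 4 to 11 in the first and last. The structural median of WT against EV went from 0.0462 to 0.0032 with the libraries numbered 1 left out, and the enzyme median of c.915dup against EV ran from -0.1036 to -0.0402 without single replicates. In c.915dup against WT the replicate block kept Fbn1, Thbs2 and Vcan. The cause of these shifts was not tested.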
